A study of Mus musculus with 8 samples.

Results

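The genes of the potassium, sodium, calcium and pacemaker channels were compared between ventricles of wild-type (WT) mouse embryos and ventricles of embryos that had lost *Nrg1* in endothelial cells. Members were the genes whose symbols begin with Kcn, Scn and a digit, or Cacn, together with the 4 HCN genes, that had 10 or more counts in at least 4 of the 8 samples. Of 53465 genes in the table, 143 had such a symbol and 75 passed the minimum, of which 53 encode pore-forming subunits, 21 encode auxiliary subunits and 1, *Kcnq1ot1*, is a non-coding RNA. The count minimum was reached in all 8 samples by 63 members and in 4 to 7 samples by 12, and no member entered through the counts of 1 genotype only.

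The series is RNA-seq of polyadenylated RNA from heart ventricles at embryonic day 9.5 (E9.5), with 4 WT and 4 *Nrg-1flox;Tie2-Cre* samples (called mutant here). In the mutants, Cre recombinase made under the *Tie2* promoter, which is active in endothelial cells including the endocardium and in many blood cells, removes floxed *Nrg1*, and other cells keep the gene. The strain, and whether each sample came from 1 embryo or a pool, are not given in the sources used here, so p-values measure the spread between these samples, which may be technical. *Nrg1* encodes neuregulin 1, a ligand that the endocardium sends to ErbB receptors on the myocardium.

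A channel gene of the pore-forming kind encodes the protein that the ion passes through. Auxiliary subunits bind the pore protein and change how much of it reaches the membrane and how it opens and closes. In heart muscle, sodium channels carry the fast upstroke of the action potential, calcium channels couple it to contraction, potassium channels end it and set the resting potential, and HCN channels carry the pacemaker current, which embryonic ventricles also have.

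Total counts ranged from 11852372 to 14360323 in WT and from 12430368 to 14223860 in mutant samples. *Nrg1* itself had 156, 131, 121 and 173 counts in WT replicates 1 to 4 and 61, 59, 71 and 72 in mutant replicates 1 to 4, without overlap, and was lower in mutants by edgeR's quasi-likelihood test (log2 fold change -1.07, SE 0.14, Benjamini-Hochberg adjusted p = 0.00268). All 10 genes of an erythroid list were higher in mutants, and their summed level ran from 6599 to 7977 CPM (counts per 1000000, scaled by edgeR's TMM) in WT and from 19478 to 67880 CPM in mutants. None of 12 cardiomyocyte genes passed edgeR's test (2 had an unadjusted p under 0.05, and DESeq2 called 2 lower), with sums of 38907 to 40965 CPM in WT and 36425 to 40388 CPM in mutants, so the muscle markers that define the tissue were present in every sample. Of 8 endothelial genes, 1, *Tek*, was lower by edgeR (5 had an unadjusted p under 0.05, and DESeq2 called 2 lower, sums 750 to 828 against 622 to 745 CPM), and of 7 epicardial genes, *Wt1* and *Tbx18* were higher (128 to 195 against 200 to 332 CPM). Of a neural list of 8 genes, 4 were tested and none was called by edgeR or DESeq2 (1 had an unadjusted p under 0.05), with sums of 20.8 to 26.2 CPM in WT and 19.5 to 24.3 CPM in mutants and *Neurod1* at 0 counts in every sample. Of a smooth or skeletal muscle list of 6 genes, 3 were tested and none was called by either tool (1 had an unadjusted p under 0.05), with *Myod1* and *Myf5* at 0 counts. Of 5 genes that mark the sinus venosus, *Tbx3* was lower and *Tbx18* higher (sums 188 to 206 against 166 to 236 CPM). This list shares *Tbx18* with the epicardial list. It also holds the member *Hcn4*, which gave 98.1 to 110 CPM of the sum in WT and 85.6 to 112 CPM in mutants. In bulk RNA, fewer cells of a type and less RNA per cell cannot be told apart.

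In WT ventricles the channel genes spanned a wide range of levels, compared here as CPM per kb of exon, where exon length is the union of annotated exons. The auxiliary calcium channel gene *Cacna2d2*, an alpha-2-delta subunit that carries the pore to the membrane, stood first at 43.4 CPM per kb. It was followed by *Kcnh2* (32.5), the pore of the rapid delayed rectifier, *Kcnj5* (31.9), a subunit of the acetylcholine-gated inward rectifier, *Kcng2* (24.2), a potassium channel subunit that forms no channel by itself, and *Cacna1h* (23.1), a T-type calcium channel pore. *Hcn4* (17.5), the main pacemaker channel, and *Kcnk3* (11.8), a leak potassium channel, were also among the 8 members at or above 10 CPM per kb, of which 7 encode pores. Neighbours in this order were not all apart: the WT samples of *Kcnh2* ran from 30.7 to 34.2 CPM per kb, a range that holds the mean of *Kcnj5*. In all, 37 members reached 1 CPM per kb, and 38 lay below it.

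**Figure D1:**
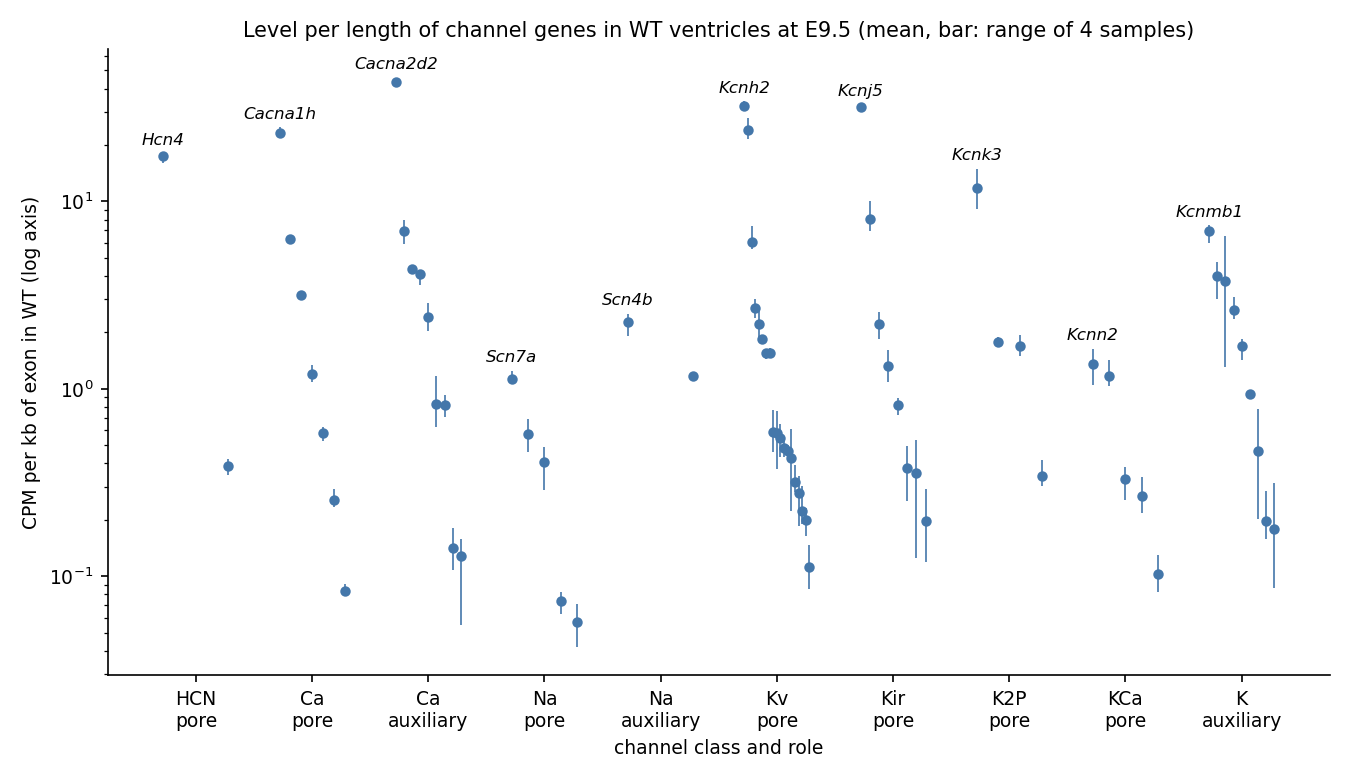
Levels of the channel genes in WT ventricles at E9.5, as CPM per kb of exon on a log axis, by channel class and role. Each point is the mean of 4 samples and each bar their range, and the highest drawn member of each class is named. The plot holds 70 members. Some pore classes have 1 gene far above the others drawn, such as *Hcn4* at 17.5 against 0.39 CPM per kb for *Hcn3*.

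Several classes were dominated by 1 gene. Of the summed per-length level of the 3 HCN genes, *Hcn4* held 96.6% to 97.2% in WT samples and 89.1% to 95.0% in mutants. *Cacna1h* held 65.9% to 67.3% of the 7 calcium channel pores in WT and 66.7% to 74.6% in mutants. *Kcnj5* made up 67.0% to 73.2% of the 8 inward rectifiers in WT and 64.4% to 66.6% in mutants. These shares are descriptions with no test, and they depend on the exon length used. *Cacna1h* and *Cacna1c* measured 225 and 134 CPM in WT, with union exon lengths of 9763 and 21191 bases.

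Between genotypes, 14 of the 74 members tested (18.9%) differed at an adjusted p under 0.05 in edgeR's quasi-likelihood test, 5 higher and 9 lower in mutants. *Kcna3*, at 0.53 to 1.10 CPM, did not pass the filter on low counts that edgeR applied. Over all 14451 genes tested, 8.62% were called, 5.11% higher and 3.5% lower. The median log2 fold change was -0.02 over the members and -0.0014 over all genes. Among the 52 pore genes tested, 5 were higher and 5 lower, with a median of -0.01. Among the 21 auxiliary genes, none was higher and 4 were lower by edgeR, with a median of -0.08. DESeq2 called the same number lower and 1 higher, *Cacna2d3*. At an unadjusted p under 0.05, 17 pore and 8 auxiliary genes differed, as did 25% of all genes tested. The difference between pore and auxiliary genes was not tested. The CPM of the genotypes did not overlap in 9 members that were higher and 12 that were lower, and this held for 9.52% and 9.45% of all genes tested.

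**Figure D2:**
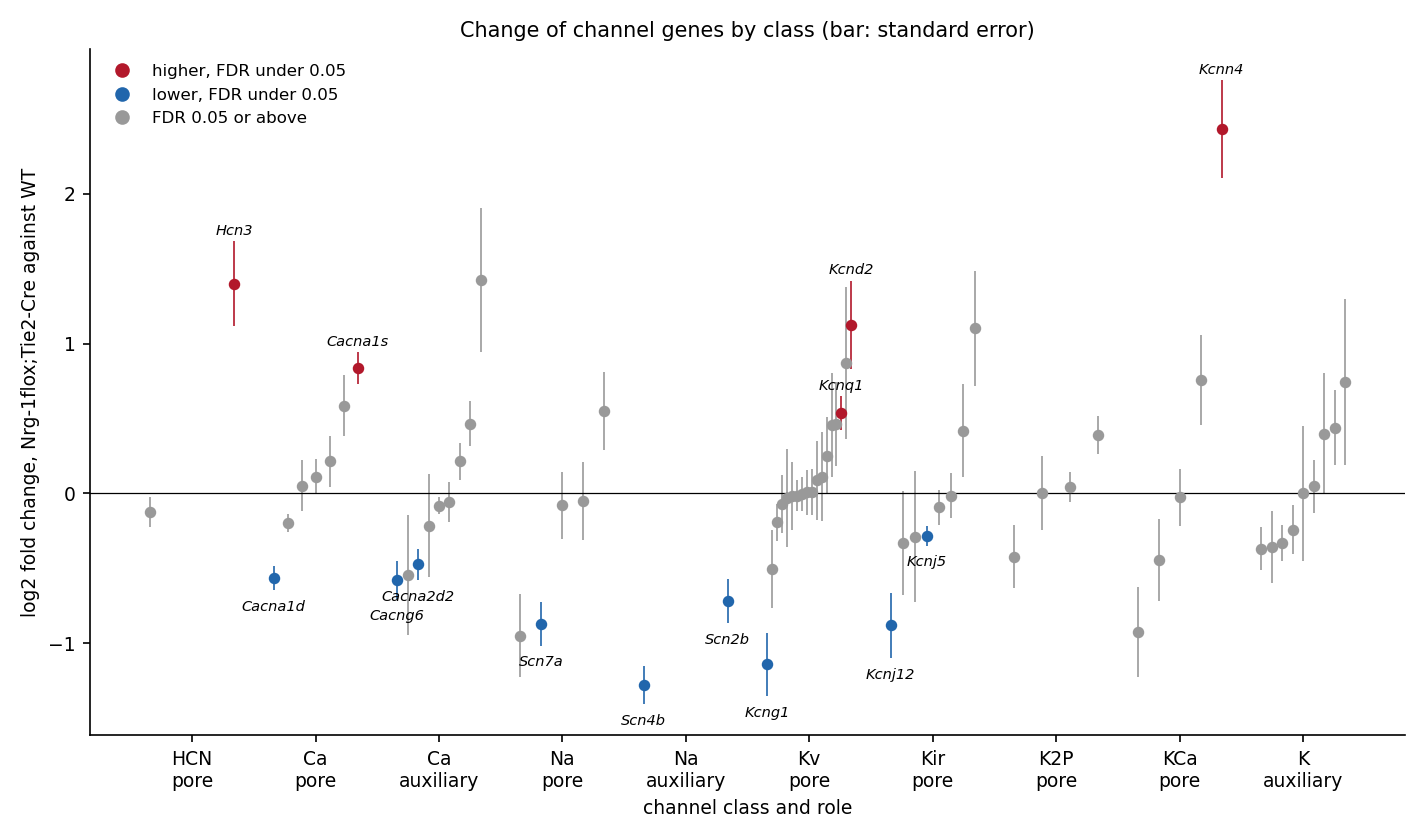
Log2 fold change of the channel genes, mutant against WT, by class and role, with bars of 1 standard error, for 69 members. Coloured points are the 14 genes with an adjusted p under 0.05, among them both lower sodium channel beta subunits and *Kcnn4*, the point farthest from 0 at 2.43.

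Of the 14 called members, *Scn4b*, *Scn7a*, *Kcng1*, *Cacna1d*, *Cacna1s* and *Kcnn4* were called in each of 14 alternative settings, 8 of which left out 1 sample. The other 8 lost the call when certain samples were left out, as given beside each. Of these, *Cacng6*, *Kcnj5*, *Kcnj12*, *Kcnq1* and *Scn2b* were also not called in a fit with a term for the sample number (replicate block). The number of members called fell to 6, 8 and 7 without WT replicates 1, 3 and 4 and to 7 without mutant replicate 4, and it was 10 without WT replicate 2, 16 without mutant replicate 1, 14 without mutant replicate 2 and 12 without mutant replicate 3. Fewer samples were fitted in each of these. Calls over all genes moved as well. They were 1245 of 14451 genes tested with all samples, 509 of 14620 without WT replicate 1 and 2523 of 14630 without mutant replicate 1.

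**Figure D3:**
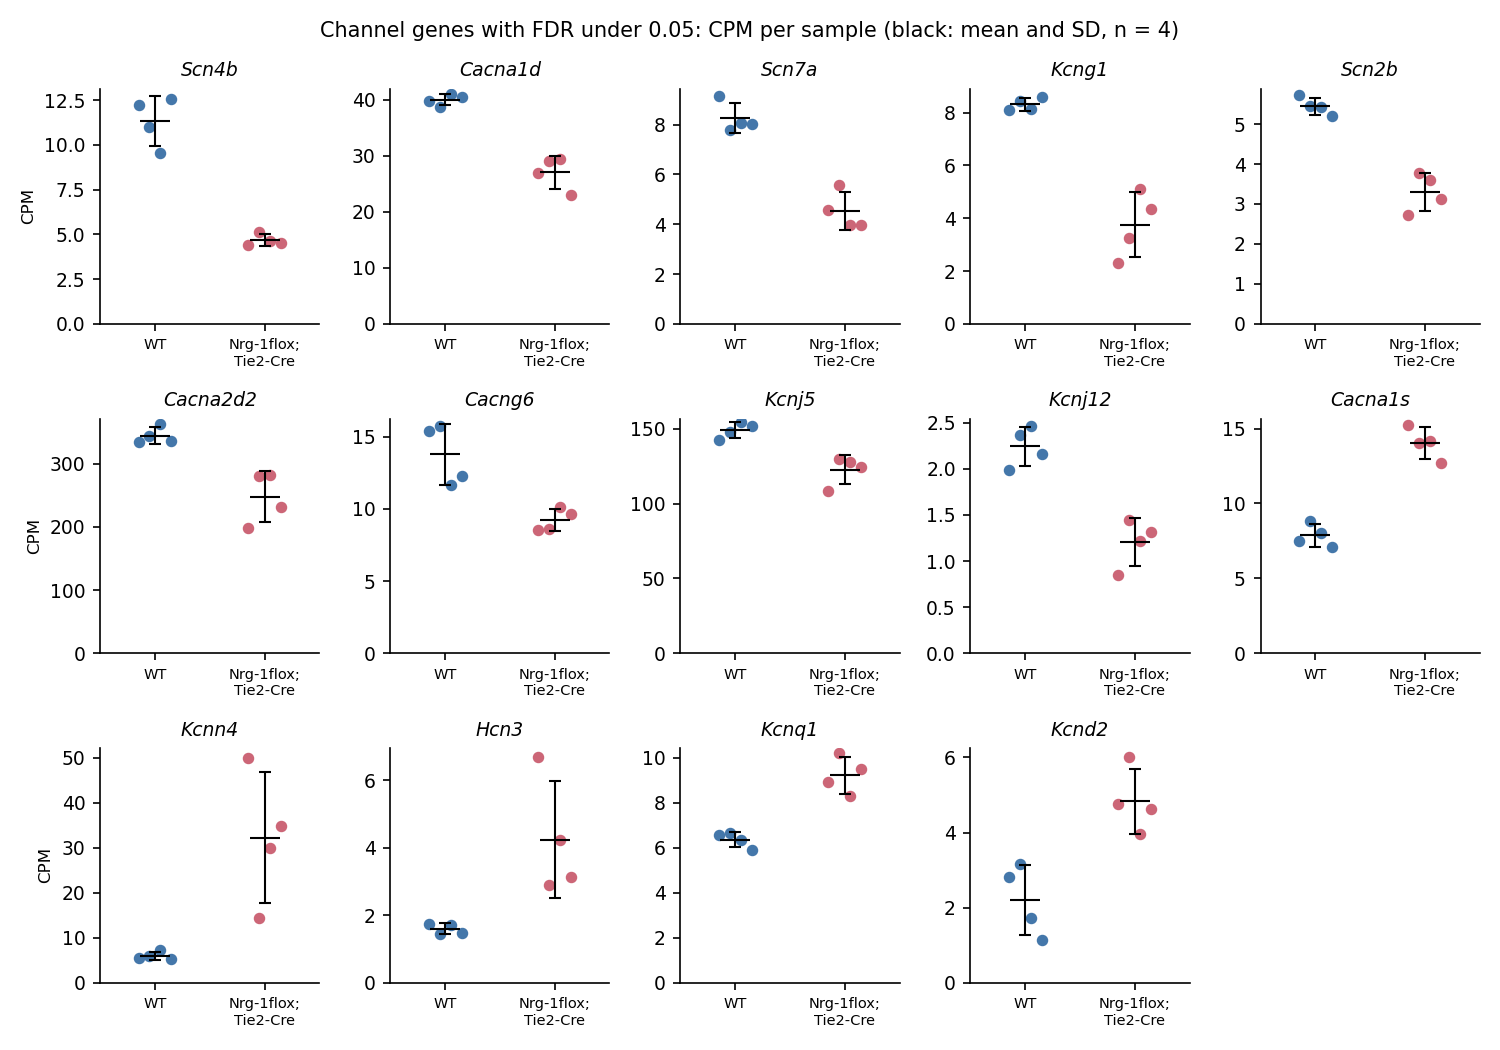
CPM of the 14 called channel genes in each of the 4 WT and 4 mutant samples, on axes that start at 0, with black marks for the mean and SD. In every panel the WT and mutant samples are separate.

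Of the sodium channel genes, 2 of 3 beta subunit genes and 1 of 6 pore genes, *Scn7a*, were called, all lower in mutants. *Scn4b* encodes the beta-4 subunit, which shapes the opening and closing of the cardiac sodium channel, and it lies on chromosome 9 from 45138395 to 45154152 (GRCm38, ENSMUSG00000046480). It measured 12.2, 11.03, 9.53 and 12.6 CPM in WT replicates 1 to 4 and 4.41, 5.14, 4.60 and 4.53 CPM in mutant replicates 1 to 4. Every mutant sample was below every WT sample, and the 4 mutant samples lay close to each other. The means were 11.3 ± 1.37 and 4.67 ± 0.32 CPM (SD, n = 4 each), a log2 fold change of -1.28 (SE 0.13, edgeR adjusted p = 0.00152), or 2.42-fold lower.

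*Scn2b*, the gene of the beta-2 subunit, is the neighbour of *Scn4b* on the same strand, from 45117782 to 45130070 (ENSMUSG00000070304), with 8324 bases between the gene models. It measured 5.73, 5.44, 5.42 and 5.205 CPM in WT and 2.71, 3.76, 3.60 and 3.13 CPM in mutants. The groups did not overlap, and the log2 fold change was -0.72 (SE 0.15, edgeR adjusted p = 0.018). The call was lost without WT replicate 1 (edgeR adjusted p = 0.0656), 3 (0.0548) or 4 (0.0506) and without mutant replicate 4 (0.0551), with log2 fold changes of -0.69 to -0.74. The median log2 fold change over the 3 beta subunit genes was -0.72, and 3.5% of all genes tested were called lower.

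Within 150000 bases of the *Scn2b* and *Scn4b* pair, 21 genes are annotated, and 4 of them had enough counts to be tested. The others tested were *Mpzl3*, a myelin protein zero-like gene, and *Il10ra*, an interleukin 10 receptor gene of blood cells. *Mpzl3* had 51, 56, 50 and 58 counts in WT and 33, 40, 41 and 37 in mutants, and its log2 fold change of -0.44 (SE 0.14) did not pass edgeR's quasi-likelihood test (adjusted p = 0.0772). *Il10ra* was higher in mutants, by 1.87 on the log2 scale (SE 0.50, edgeR adjusted p = 0.0464).

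*Scn7a* encodes an atypical sodium channel that responds to sodium level and is not opened by voltage. It lies on chromosome 2 from 66673425 to 66784914 on the minus strand (ENSMUSG00000034810). It measured 9.17, 7.81, 8.05 and 8.04 CPM in WT and 4.58, 5.57, 3.96 and 3.96 CPM in mutants, and the groups did not overlap. The log2 fold change was -0.87 (SE 0.15, edgeR adjusted p = 0.00676). *Scn10a*, *Scn8a* and *Scn2a* did not pass. *Scn4a*, the skeletal muscle sodium channel, measured 2.03 to 3.45 CPM in WT and 1.10 to 2.23 CPM in mutants, an overlap made by 1 mutant sample (log2 fold change -0.95, SE 0.28, edgeR adjusted p = 0.0632). By edgeR it was called in 2 alternatives, with a filter of 10 or more counts in every sample and without mutant replicate 3.

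**Figure D4:**
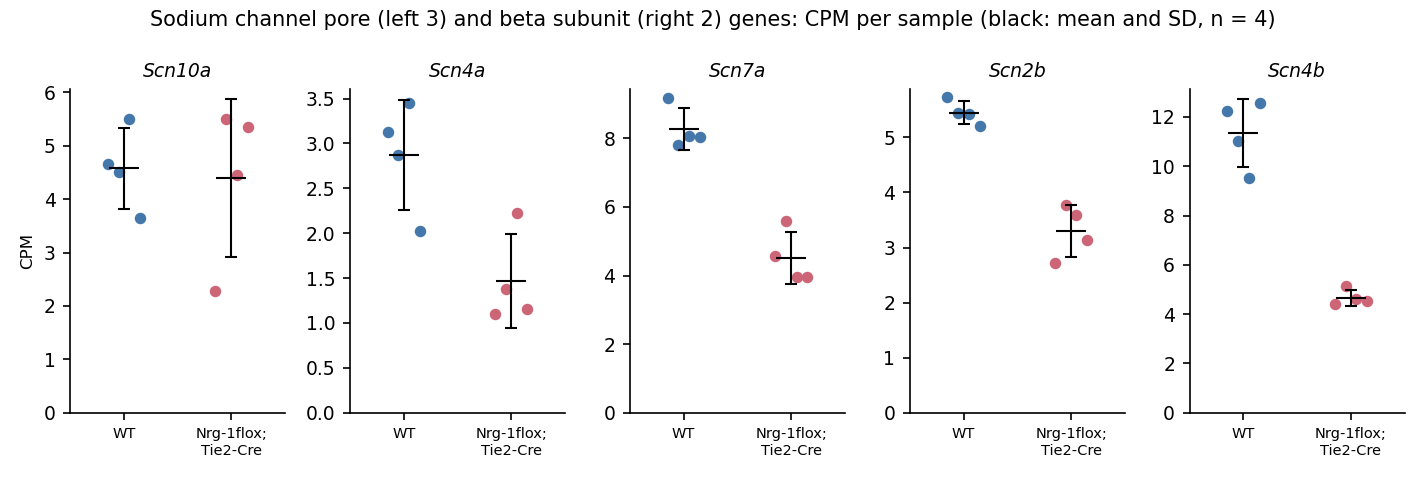
CPM of 3 sodium channel pore genes and 2 beta subunit genes in each sample, with black marks for the mean and SD of 4 samples and axes from 0. *Scn7a*, *Scn2b* and *Scn4b* are separate between genotypes, and *Scn10a* and *Scn4a* overlap.

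Sequence upstream of called members is shown so that the stretches beside the start sites can be read against the values. They are from the RefSeq promoter table on GRCm38.p6, 5′ to 3′ on the strand of the gene, and hold only bases outside the gene model. Of the 14 called members, 11 had an entry. Of the 6 members called in every setting, *Scn7a*, *Cacna1s* and *Kcnn4* had at least 100 such bases. *Scn2b* is shown as the neighbour of *Scn4b*, whose own entry held 21 such bases. Capitals mark matches on either strand to 5 motifs: GATAA, the GATA factor core (in 22.5% of 32536 promoter windows of 250 bases), CACCC, the KLF-type box (52.1%), TNAAGTG, the NKX2-5 type (10.01%), GGTGTGA, the T-box half-site (3.33%), and CCGGAA, the ETS core (12.1%). These windows are longer than 3 of the 4 stretches shown. A match only describes the letters. The stretch of *Scn7a* is chr2:66784915-66785160 on the minus strand, with 1 match to GATAA (read as TTATC) and 1 to CACCC (read as GGGTG). The stretch of *Scn2b* is chr9:45117626-45117781 on the plus strand, and its 156 bases hold no match, while the 250-base window before its RefSeq start site, which reaches into the gene model, holds 1 to CACCC.
Scn7a: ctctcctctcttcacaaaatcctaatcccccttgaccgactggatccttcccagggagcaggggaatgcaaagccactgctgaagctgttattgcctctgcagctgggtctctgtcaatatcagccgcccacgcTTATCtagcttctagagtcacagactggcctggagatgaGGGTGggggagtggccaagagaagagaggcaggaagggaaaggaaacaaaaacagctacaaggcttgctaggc
Scn2b: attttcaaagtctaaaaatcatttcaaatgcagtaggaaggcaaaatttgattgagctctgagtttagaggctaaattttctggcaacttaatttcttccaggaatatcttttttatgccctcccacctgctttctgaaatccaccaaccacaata

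Among calcium channel pores, *Cacna1d* was lower and *Cacna1s* higher in mutants. *Cacna1d* encodes the L-type channel Cav1.3, which opens at more negative voltages than Cav1.2 and takes part in pacemaking. It lies on chromosome 14 from 30039939 to 30491455 (ENSMUSG00000015968). It measured 39.8, 38.8, 41.0 and 40.6 CPM in WT and 26.9, 29.1, 29.3 and 23.0 CPM in mutants. The WT samples lay within 3 CPM of each other and above all mutants, and the log2 fold change was -0.56 (SE 0.08, edgeR adjusted p = 0.00359). Its exons share 589 bases with *Chdh* on the opposite strand, which had 1 to 6 counts in any sample.

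*Cacna1s* encodes Cav1.1, the L-type channel known for coupling excitation to contraction in skeletal muscle, and lies on chromosome 1 from 136052750 to 136119822 (ENSMUSG00000026407). It measured 7.49, 8.81, 8.05 and 7.10 CPM in WT and 15.3, 14.05, 14.2 and 12.7 CPM in mutants. Every mutant sample was higher than every WT sample, with a log2 fold change of 0.84 (SE 0.11, edgeR adjusted p = 0.00251), or 1.79-fold. Of its exon length, 19.98% is shared with the antisense gene *Gm37759*, which had 0 to 6 counts in any sample. Of the skeletal muscle regulators, *Myod1* and *Myf5* were at 0 counts in every sample, and *Myog* had 1 count in mutant replicate 1 and 0 in the others. Its upstream stretch, chr1:136052561-136052749 on the plus strand, held 2 matches to CACCC and none to the other 4 motifs.
Cacna1s: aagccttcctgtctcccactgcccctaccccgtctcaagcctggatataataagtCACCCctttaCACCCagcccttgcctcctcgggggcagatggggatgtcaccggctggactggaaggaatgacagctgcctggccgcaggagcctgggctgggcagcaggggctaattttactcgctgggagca

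*Cacna1c*, the gene of Cav1.2 and the main L-type channel of working heart muscle, measured 133, 137, 141 and 126 CPM in WT and 121, 119, 120 and 108 CPM in mutants. The groups did not overlap, and the log2 fold change was -0.20 (SE 0.06), with an adjusted p of 0.075 by edgeR that did not pass. It passed by DESeq2 (adjusted p = 0.0373) and, by edgeR, without mutant replicate 1 (0.0284), and over all alternatives its adjusted p ran from 0.0284 to 0.193. *Cacna1h* measured 216, 223, 243 and 220 CPM in WT and 315, 219, 235 and 206 CPM in mutants, where replicate 1 alone stood above the WT range (log2 fold change 0.11, SE 0.12, edgeR adjusted p = 0.608). Without that sample the estimate was -0.03. *Cacna1g*, another T-type pore, measured 2.37 to 2.96 CPM in WT and 2.71 to 4.85 CPM in mutants (log2 fold change 0.59, SE 0.20, edgeR adjusted p = 0.106), and was called in 1 alternative, without mutant replicate 1. The per-length log2 ratio of *Cacna1d* to *Cacna1c* ran from -1.07 to -0.89 in WT and from -1.49 to -1.28 in mutants, without overlap.

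Auxiliary calcium channel genes gave 2 calls of 9 by edgeR, both lower (3.5% of all genes tested were lower), and DESeq2 called 2 lower and 1, *Cacna2d3*, higher. *Cacna2d2* (chromosome 9 from 107399612 to 107529343, ENSMUSG00000010066) measured 335, 344, 364 and 336 CPM in WT and 198, 280, 282 and 232 CPM in mutants. Every mutant was below every WT sample, with replicate 1 the lowest, and the log2 fold change was -0.47 (SE 0.10, edgeR adjusted p = 0.0236). No call was made without any 1 of the WT replicates (edgeR adjusted p = 0.0652, 0.0629, 0.077 and 0.0639 for replicates 1 to 4) and without mutant replicate 4 (0.0714), with log2 fold changes of -0.44 to -0.49. Its per-length log2 ratio to *Cacna1c* ran from 2.75 to 2.83 in WT and from 2.12 to 2.65 in mutants.

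*Cacng6*, a gamma subunit gene on chromosome 7 (3424195 to 3435667, ENSMUSG00000078815), measured 15.4, 15.8, 11.7 and 12.3 CPM in WT and 8.56, 8.62, 10.1 and 9.64 CPM in mutants. WT replicates 3 and 4 lay nearest to the mutants, and the log2 fold change was -0.58 (SE 0.13, edgeR adjusted p = 0.0248). It was not called without WT replicate 1 (edgeR adjusted p = 0.0863) or 2 (0.0707) and without mutant replicate 2 (0.0504) or 4 (0.0566). *Cacnb2*, the main beta subunit gene of the heart, overlapped between groups (57.4 ± 2.04 CPM in WT, 54.2 ± 2.57 CPM in mutants, SD, n = 4 each, with an edgeR adjusted p of 0.407). *Cacna2d3* was spread widely in mutants, at 6.53, 1.09, 2.52 and 3.21 CPM against 0.95 to 1.58 CPM in WT (log2 fold change 1.42, SE 0.48, edgeR adjusted p = 0.0982). It was called by DESeq2 and, by edgeR, without mutant replicate 2. Mutant replicate 1, its highest sample, is also the sample with the highest erythroid sum, and the part of the erythroid genes in this value was not tested.

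Among pacemaker channels, *Hcn4* did not pass the test. It measured 109, 110, 110 and 98.1 CPM in WT and 85.6, 112, 109 and 85.6 CPM in mutants. Mutant replicates 2 and 3 lay at the WT level and replicates 1 and 4 below it (log2 fold change -0.12, 95% interval -0.35 to 0.10, edgeR adjusted p = 0.485). *Hcn2* missed the count minimum, with 4 to 6 counts in WT and 9 in each mutant sample.

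*Hcn3*, a slowly opening member of the family, lies on chromosome 3 from 89146074 to 89160196 on the minus strand (ENSMUSG00000028051). It measured 1.76, 1.43, 1.73 and 1.49 CPM in WT and 6.70, 2.90, 4.24 and 3.13 CPM in mutants. The groups did not overlap, and the log2 fold change was 1.40 (SE 0.28, edgeR adjusted p = 0.0165). *Hcn3* was not called without WT replicate 1 (edgeR adjusted p = 0.0515), 2 (0.0543) or 4 (0.0605). Its last 711 exon bases, 17.1% of its exon length, from 89146074 to 89146784, are also exon of *Pklr* on the opposite strand and are coding in neither gene.

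*Pklr* encodes the pyruvate kinase of red cells and liver, and it measured 24.2, 31.6, 28.6 and 26.2 CPM in WT and 219, 76.3, 162 and 157 CPM in mutants (log2 fold change 2.47, SE 0.27, edgeR adjusted p = 0.00174). Its order over the mutant samples was that of the summed erythroid list except for replicates 3 and 4, and *Hcn3* was likewise highest in replicate 1 and lowest in replicate 2. Use of strand in counting is not given in the sources used here, and without it, reads from the shared bases cannot be assigned to *Hcn3* or to *Pklr*. The rise of *Hcn3* therefore cannot be told apart from reads of *Pklr* in these counts.

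**Figure D5:**
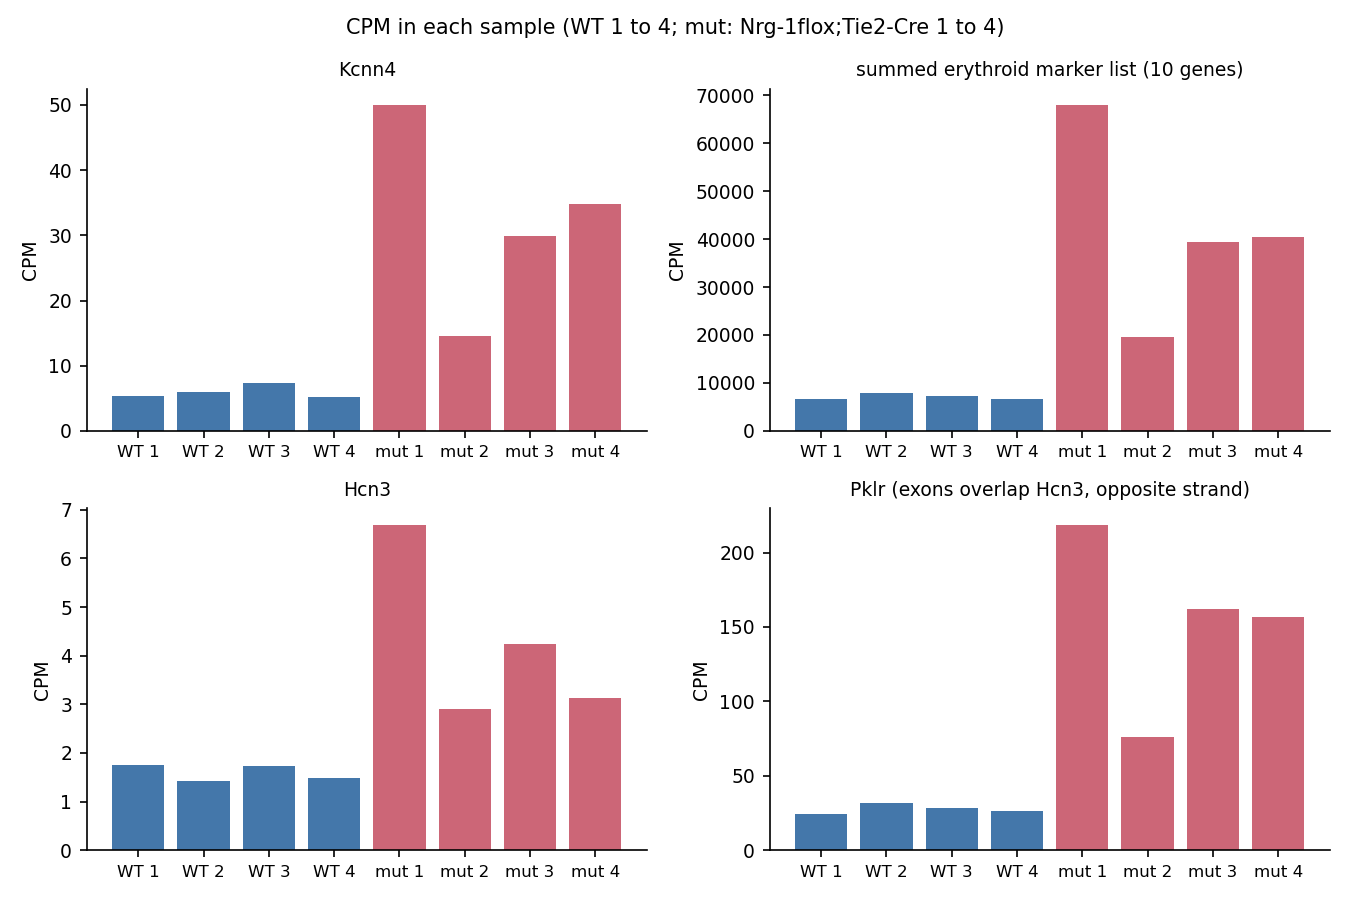
CPM of *Kcnn4*, *Hcn3* and *Pklr* and the summed CPM of the 10 erythroid genes in each sample, as bars from 0. All 4 panels are highest in mutant replicate 1 and, among mutants, lowest in replicate 2, and all mutants stand above all WT samples.

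Among calcium- or sodium-activated potassium channels, *Kcnn4* showed the highest fold change of all members. It encodes the intermediate-conductance channel KCa3.1, known as the Gardos channel of red cells, and lies on chromosome 7 from 24370263 to 24386690 (ENSMUSG00000054342). It measured 5.42, 5.95, 7.31 and 5.27 CPM in WT and 49.9, 14.5, 29.8 and 34.9 CPM in mutants. Every mutant sample was above every WT sample, and the spread in mutants was wide (32.3 ± 14.6 CPM against 5.99 ± 0.93 CPM in WT, SD, n = 4 each). The log2 fold change was 2.43 (SE 0.33, edgeR adjusted p = 0.00282), or 5.39-fold. The mutant samples came in the same order as for the erythroid sum, which was 67880, 19478, 39376 and 40433 CPM in mutant replicates 1 to 4. Of the 5 members called higher, 1, *Kcnn4*, had this order. Of the 9 called lower, 3, *Scn4b*, *Scn2b* and *Kcnj5*, had the reverse order and 6 did not. What part the erythroid genes play in these values was not tested. Its upstream stretch, chr7:24370013-24370262 on the plus strand, held 3 matches to CACCC (2 of them read as GGGTG) and none to the other 4 motifs.
Kcnn4: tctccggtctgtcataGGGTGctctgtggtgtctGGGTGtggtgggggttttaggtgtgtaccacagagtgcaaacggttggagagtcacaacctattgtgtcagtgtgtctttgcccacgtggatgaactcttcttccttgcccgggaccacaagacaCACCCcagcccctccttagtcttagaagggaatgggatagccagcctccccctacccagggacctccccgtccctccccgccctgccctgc

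None of the 3 small-conductance genes was called by edgeR or by DESeq2, although *Kcnn3* and *Kcnn1* had an unadjusted p under 0.05. *Kcnn2* overlapped between groups at 7.84 to 12.2 CPM in WT and 7.58 to 12.8 CPM in mutants (log2 fold change -0.03, 95% interval -0.45 to 0.40). *Kcnn3*, at 0.86 to 1.35 CPM in WT and 0.34 to 0.72 CPM in mutants, did not overlap, and its log2 fold change of -0.92 (SE 0.30) did not pass edgeR's test (adjusted p = 0.0924). *Kcnn1* measured 0.99 to 1.55 CPM in WT and 1.22 to 2.80 CPM in mutants and did not pass (log2 fold change 0.76, SE 0.30, edgeR adjusted p = 0.15). *Kcnn4* held 32.5% to 39.9% of the summed per-length level of the 5 genes of this class in WT and 57.1% to 78.8% in mutants.

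Of 19 voltage-gated potassium channel genes tested, 2 were higher and 1 lower in mutants, beside 5.11% and 3.5% of all genes tested. *Kcng1* encodes an electrically silent subunit, which joins Kv2 pores and does not form a channel alone, and lies on chromosome 2 from 168260117 to 168281736 (ENSMUSG00000074575). It measured 8.10, 8.45, 8.14 and 8.58 CPM in WT and 2.29, 3.26, 5.11 and 4.37 CPM in mutants. The WT samples lay close together and the mutants were all lower, with a log2 fold change of -1.14 (SE 0.21, edgeR adjusted p = 0.0114), or 2.20-fold lower. The other 2 silent subunit genes, *Kcng2* and *Kcnf1*, overlapped between groups. *Kcng2*, at 72.3 ± 8.59 CPM in WT and 72.0 ± 9.97 CPM in mutants (SD, n = 4 each), gave an estimate of 0.00 (95% interval -0.26 to 0.25), whose sign turned under other scalings.

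*Kcnq1* encodes the pore of the slow delayed rectifier and lies on chromosome 7 from 143106362 to 143427042 (ENSMUSG00000009545). It measured 6.57, 6.66, 6.33 and 5.88 CPM in WT and 8.90, 10.2, 8.27 and 9.48 CPM in mutants, without overlap (log2 fold change 0.53, SE 0.11, edgeR adjusted p = 0.0206). The call was lost without WT replicate 1 (edgeR adjusted p = 0.0612), 3 (0.0637) or 4 (0.0706) and without mutant replicate 4 (0.0588). *Kcne1*, its auxiliary subunit, measured 9.67 to 15.3 CPM in WT and 10.3 to 16.9 CPM in mutants and did not pass (log2 fold change 0.05, SE 0.18). The imprinted antisense RNA *Kcnq1ot1*, which shares 121 exon bases with *Kcnq1*, was not called (log2 fold change -0.34, SE 0.17, edgeR adjusted p = 0.26), and was called lower without WT replicate 2 (edgeR adjusted p = 0.0476).

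*Kcnd2*, the Kv4.2 pore of the fast transient outward current, lies on chromosome 6 from 21215503 to 21729805 (ENSMUSG00000060882). It measured 2.83, 3.15, 1.73 and 1.15 CPM in WT and 4.75, 6.01, 3.96 and 4.62 CPM in mutants. The groups did not overlap, with a log2 fold change of 1.13 (SE 0.29, edgeR adjusted p = 0.0432). The call was lost without WT replicate 1 (edgeR adjusted p = 0.077), 3 (0.124) or 4 (0.0881) and without mutant replicate 2 (0.0838), 3 (0.0635) or 4 (0.0871). *Kcnd3*, the Kv4.3 pore of the same current, measured 1.58 to 2.22 CPM in WT and 0.87 to 1.90 CPM in mutants (log2 fold change -0.50, SE 0.26, edgeR adjusted p = 0.267).

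*Kcnh2* and *Kcna5* did not pass. *Kcnh2* measured 158, 166, 158 and 149 CPM in WT and 122, 167, 176 and 159 CPM in mutants, where replicate 1 was below the WT range and the others within or above it (log2 fold change -0.01, 95% interval -0.24 to 0.22). *Kcna5*, the ultrarapid delayed rectifier known for its place in the atria, measured 16.1, 16.5, 21.2 and 16.0 CPM in WT and 10.9, 27.9, 21.9 and 13.3 CPM in mutants. The mutant samples lay on both sides of the WT samples, and the 95% interval of the log2 fold change (0.09) was -0.50 to 0.67. Its sign turned without mutant replicate 2 (-0.17) and that of *Kcnh2* without mutant replicate 1 (0.09).

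Of 8 inward rectifier genes, 2 were lower and none was higher by edgeR, and DESeq2 called 1 lower and none higher. By edgeR, 3.5% of all genes tested were lower. *Kcnj5* (chromosome 9 from 32314707 to 32344350, ENSMUSG00000032034) measured 143, 148, 155 and 152 CPM in WT and 109, 130, 128 and 125 CPM in mutants. Every mutant sample was lower than every WT sample, and the log2 fold change was -0.28 (SE 0.07, edgeR adjusted p = 0.0304). The call was lost without any 1 WT replicate (edgeR adjusted p = 0.0693, 0.0737, 0.096 and 0.0911 for replicates 1 to 4) and without mutant replicate 3 (0.0538) or 4 (0.0694). *Kcnj3*, whose product assembles with that of *Kcnj5*, overlapped between groups at 9.67 to 13.4 CPM in WT and 10.5 to 11.2 CPM in mutants (log2 fold change -0.09, SE 0.12).

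*Kcnj12*, the Kir2.2 gene of the resting potassium current (chromosome 11 from 61022564 to 61071131, ENSMUSG00000042529), measured 1.99, 2.36, 2.47 and 2.16 CPM in WT and 0.85, 1.45, 1.22 and 1.32 CPM in mutants. The groups did not overlap, with a log2 fold change of -0.88 (SE 0.22, edgeR adjusted p = 0.0357). Its call was lost by DESeq2 (adjusted p = 0.06), without the filter on low counts (edgeR, 0.0829), without any 1 WT replicate (edgeR, 0.0799, 0.0894, 0.102 and 0.0903 for replicates 1 to 4) and without mutant replicate 3 (0.0829) or 4 (0.0775). *Kcnj2*, the Kir2.1 gene of the same current, measured 5.95 to 8.78 CPM in WT and 17.6, 8.18, 6.40 and 6.59 CPM in mutants, where replicate 1 alone was above the WT range (edgeR adjusted p = 0.445). *Kcnj4* was higher in all mutants than in any WT sample, at 1.37 to 2.29 against 0.27 to 1.15 CPM, and did not pass (log2 fold change 1.10, SE 0.38, edgeR adjusted p = 0.106). *Kcnj11*, the pore of the ATP-sensitive channel, gave a log2 fold change of -0.01 (95% interval -0.35 to 0.32), which turned positive without mutant replicate 1 (0.10).

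None of the 4 leak channel genes and none of the 9 auxiliary potassium channel genes passed edgeR's test, with 1 and 2 of them at an unadjusted p under 0.05, beside 25% of all genes tested. DESeq2 called none of them. *Kcnk3* measured 52.1, 59.6, 40.4 and 36.0 CPM in WT and 22.2, 40.2, 33.9 and 44.1 CPM in mutants, which overlapped (log2 fold change -0.42, SE 0.21, edgeR adjusted p = 0.255). *Kcnk5* did not overlap, at 5.09 to 6.57 CPM in WT and 7.17 to 7.80 CPM in mutants (log2 fold change 0.39, SE 0.13, edgeR adjusted p = 0.0886). Among auxiliary genes, *Kcnmb1*, the beta-1 subunit of the large-conductance channel, measured 25.1 to 31.4 CPM in WT and 18.1 to 25.8 CPM in mutants (log2 fold change -0.33, SE 0.12, edgeR adjusted p = 0.121). *Kcnip3* measured 8.38 to 10.9 CPM in WT and 6.35 to 8.70 CPM in mutants (log2 fold change -0.37, SE 0.14, edgeR adjusted p = 0.145). *Kcne1l* was spread widely in both genotypes, at 8.02, 10.1, 2.96 and 2.03 CPM in WT and 3.39, 15.1, 6.26 and 13.8 CPM in mutants, and the groups overlapped.

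Genes outside the member rule that act with the channels gave 8 calls among 33 tested, beside 8.62% of all genes called, 5.11% higher and 3.5% lower. Of 28 partner genes, which bind channels, anchor them or regulate them, 22 were tested, 2 were higher and 4 lower. *Abcc8*, a sulfonylurea receptor that joins *Kcnj11* in the ATP-sensitive channel, rose from 3.47 ± 0.22 to 6.91 ± 2.21 CPM (log2 fold change 0.99, edgeR adjusted p = 0.0257), and *Dlg1*, a scaffold that clusters channels, rose from 92.5 ± 5.06 to 121 ± 15.6 CPM (0.39, 0.0271), where means are given with SD over n = 4. *Dlg1* measured 142, 104, 118 and 122 CPM in mutant replicates 1 to 4, the order of the erythroid sum, whose part in this rise was not tested. *Calm2*, one of the calmodulin genes, fell by 0.34 on the log2 scale (edgeR adjusted p = 0.00824), and *Calm3*, another, did not pass (0.05). *Lrrc10*, a heart protein that binds the L-type channel (-0.38, 0.011), *Ank3*, which anchors sodium channels (-0.32, 0.0297), and *Gpd1l*, which affects their transport to the membrane (-0.34, 0.0253), were lower by edgeR in log2 fold change and adjusted p. Of these 6 partner calls, only those of *Calm2* and *Lrrc10* held in all 14 alternatives.

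Of 12 pumps, exchangers and other ion transport genes, 11 were tested, none was higher and 2 were lower by edgeR (3.5% of all genes tested were lower), and DESeq2 called none higher and 3 lower. Of these, *Atp1b1*, the beta-1 subunit of the sodium pump, fell from 518 ± 29.1 to 433 ± 22.2 CPM (SD, n = 4 each, log2 fold change -0.26, SE 0.06, edgeR adjusted p = 0.0262). The calcium store genes *Ryr2* (-0.03), *Atp2a2* (0.03) and *Pln* (-0.13) did not pass, nor did the exchanger *Slc8a1* (-0.21, SE 0.07, edgeR adjusted p = 0.0806). The call of *Atp1b1* was lost without any 1 WT replicate and without mutant replicates 3 or 4 (edgeR adjusted p = 0.0507 to 0.0819).

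The members varied more between samples of 1 genotype than genes at large. Their median coefficient of variation was 14.2% in WT and 21.2% in mutants, against 7.37% and 12.7% over all genes tested, a set that holds many genes of higher count. Among the 74 members tested, mutant replicate 1 was the lowest mutant sample for 33 and the highest for 20, and mutant replicate 2 was the highest for 32. Without mutant replicate 1, the sample with the highest erythroid sum, 16 members were called, among them all 14. In that fit 2523 of 14630 genes tested were called, against 1245 of 14451 with all samples, so the rise was not particular to the members.

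Of the 143 genes with a channel symbol, 68 fell below the minimum, and 9 of these had no count in any sample. Just outside it, with 10 or more counts in 3 samples, were *Kcnc4* (15, 10, 3 and 10 counts in WT and 0, 0, 4 and 2 in mutants), *Kcnip2* (15, 11, 11 and 9 in WT and 7, 6, 3 and 6 in mutants), *Kcne3* (2, 2, 9 and 1 in WT and 73, 17, 4 and 12 in mutants), *Kcnk1* (19, 9, 7 and 12 in WT and 6, 6, 13 and 5 in mutants) and *Kcnv2* (10, 6, 10 and 5 in WT and 8, 11, 3 and 8 in mutants). *Kcna3* (7, 8, 7 and 11 counts in WT and 13, 11, 10 and 8 in mutants) was just inside it, with 4 such samples. No test of the genes outside is given. Exons of 28 members overlap those of another gene. Of the 600 deposited values of all 75 members, 179 were not whole, since RSEM's estimate can share reads between genes.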

How the data were processed

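Polyadenylated RNA of 8 ventricle samples was read as single reads of 60 bases. The authors deposited 1 table of RSEM expected counts per gene, estimated reads without scaling for depth or length. The submitters' processing notes name cutadapt, RSEM 1.3.1 and GRCm38. The deposited table is tagged 91 after GRCm38, read here as the Ensembl release of its genes; the aligner and use of strand are not given in the sources used here. Symbols were assigned to 53274 of 53465 gene IDs, with exons and lengths from GENCODE M21, a later release. Expected counts were rounded and tested with edgeR 4.0.16 in R 4.3.3 (TMM, filterByExpr by genotype, quasi-likelihood test, Benjamini-Hochberg over 14451 genes, FDR threshold 0.05). CPM are TMM-scaled counts per 1000000, and SE is the log2 fold change over the square root of F. The code of the test was run on counts simulated with 1 spread for all genes and both genotypes. The mutants here varied more than the WT samples, so that run does not cover their spread. Total counts of 11852372 to 14360323 make 1 CPM about 11.8 to 14.8 counts, so members near 1 CPM carry visible counting error. The chi-square of each replicate pair, over its degrees of freedom, was 3.594 to 5.752 in WT and 4.411 to 47.92 in mutants. The highest values were pairs with mutant replicate 1. All lay above sampling noise, so each sample counted once, which does not show that the samples are biological replicates.

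Members, classes and lists (channel partners, pumps and exchangers, and cardiomyocyte, erythroid, neural, endothelial, epicardial, sinus venosus and smooth or skeletal muscle markers) were chosen with earlier results of these data known. Named genes were the called members, *Hcn4*, *Kcna5* and *Cacna1c*, the 2 members of highest CPM in each class, and called partner and transport genes. Some results of this kind are not reported here. Other members were named after their values were seen. Alternatives were DESeq2 1.42.0 and its size factors, other filters on low counts, a replicate block, removal of hemoglobin genes, and each sample left out.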

Additional observations from a re-analysis of the deposited data

Results flagged for a closer look

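A sample stood apart from the other 3 of its genotype in 6 of 70 groups of values that were checked, where chance would give about 1 in 20, or 3.5. The measure is the gap to the nearest sample over the whole range. In WT, *Hcn4* was low in replicate 4 (98.1 against 109 CPM in the nearest sample, ratio 0.919), *Kcnk6*, a leak potassium channel gene, was high in replicate 3 (7.81 against 7.31 CPM, ratio 0.871), and *Kcna5* was high in replicate 3 (21.2 against 16.5 CPM, ratio 0.898). In mutants, replicate 1 was low for *Kcnj11* (21.8 against 31.2 CPM, ratio 0.88), *Kcnmb1* (18.1 against 24.6 CPM, ratio 0.843) and *Lrrc10* (35.4 against 41.0 CPM, ratio 0.836). This sample had the highest erythroid sum. What sets it apart was not tested.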

How the results depend on the processing

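Over the named genes and alternatives, 393 values kept their direction and side of the threshold, 76 lost the call, 3 gained one and 18 changed sign, all of the last in genes that were not called. The cause was not tested, although a left-out sample means fewer samples fitted. About 11.8 to 14.8 counts at 1 CPM limit the precision of the lowest members. *Kcng2* turned to 0.00206 with DESeq2 size factors, 0.0015 by DESeq2 and 0.00345 without hemoglobin genes. With each sample left out in turn, the log2 fold change ran from -0.17 to 0.082 for *Kcnn2*, -0.056 to 0.091 for *Kcng2*, -0.077 to 0.11 for *Kcnj11*, -0.077 to 0.088 for *Kcnh2*, -0.088 to 0.15 for *Kcne1*, -0.034 to 0.19 for *Cacna1h* and -0.17 to 0.28 for *Kcna5*. In the same way, 509 to 2523 genes were called (335 to 1368 higher, 174 to 1155 lower; lowest without WT replicate 1, highest without mutant replicate 1), 6 to 16 members (2 to 6 higher, 4 to 10 lower, 5 to 12 pore, 1 to 4 auxiliary) and 3 to 12 partner and transport genes. Class medians ran from -0.28 to -0.061 for auxiliary genes, -0.28 to 0.15 for auxiliary potassium channel genes, -0.78 to -0.63 for sodium channel beta subunits, -0.075 to 0.079 for leak channels and -0.034 to 0.18 for voltage-gated potassium channels. What the sample numbers stand for is not given in the sources used here. Deviations of samples with the same number correlated at 0.01, -0.09, -0.0038 and 0.02 for numbers 1 to 4. With 4 samples in each genotype, these values cannot show whether such samples were paired. In a fit with a replicate block, 616 genes were called (398 higher, 218 lower), 9 members (5 lower, 2 auxiliary), all among the 14, and 3 partner or transport genes, while *Cacng6*, *Kcnj5*, *Kcnj12*, *Kcnq1* and *Scn2b* were not called.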

Other observations

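Several members and partners were not described above. *Kcnq5*, a potassium channel of the KCNQ family, measured 18.5 to 23.3 CPM in WT and 16.3 to 26.3 CPM in mutants, and *Kcnh7*, a relative of *Kcnh2*, measured 22.5 to 25.1 CPM in WT and 17.9 to 26.2 CPM in mutants. Neither passed edgeR's quasi-likelihood test, and *Kcnh7* was called without mutant replicate 2. *Scn2a* did not overlap, at 0.53 to 0.90 CPM in WT and 1.02 to 1.15 CPM in mutants, with a log2 fold change of 0.55 (SE 0.26) that did not pass.

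Among partner genes, *Fgf13*, an intracellular factor that binds sodium channels, measured 26.1 ± 1.21 CPM in WT and 25.4 ± 0.97 CPM in mutants (SD, n = 4 each). *Rrad*, an inhibitor of the L-type channel, measured 178 ± 4.07 CPM and 200 ± 39.8 CPM. *Abcc9*, the sulfonylurea receptor of cardiac muscle, was below WT in all mutants (129 ± 19.3 against 108 ± 5.32 CPM), and its log2 fold change of -0.26 (SE 0.10) did not pass edgeR's test (adjusted p = 0.14). Its relative *Abcc8*, called higher, was far less abundant at 3.47 CPM in WT.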
